A study of Mus musculus with 12 samples.

Results

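The genes described here are 36 genes of cholesterol and fatty acid metabolism, taken by their symbols from the tables of RNA-seq values of Th17, iTreg, and Th0 cells. They comprise 18 enzymes of sterol synthesis, 6 regulators and sterol carriers, 8 genes of fatty acid synthesis, and 4 genes of sterol efflux and liver X receptor (LXR) signalling. Of the 11247 genes listed in either table, 36 are members. The table of Th17 and Th0 cells lists 35 of them, without Scd1, and the table of iTreg and Th0 cells lists all 36. After a filter on low values, 34 members were tested in each comparison, among 10269 and 10208 genes tested.

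Cells make cholesterol from acetyl-CoA through mevalonate and squalene. The transcription factor SREBP2 (Srebf2) raises the genes of this pathway when membranes run short of sterol, the escort protein SCAP carries it to the Golgi, and INSIG proteins hold the complex back in the endoplasmic reticulum when sterol is abundant. Sterol intermediates and oxysterols activate LXR, which drives export through ABCA1 and ABCG1 and turns on SREBP1c and fatty acid desaturation. Dividing T cells need new membrane lipid, and intermediates of cholesterol synthesis are known as ligands of the Th17 factor RORγt.

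All 3 groups started from naive CD4+CD62L+ T cells taken from spleens of C57BL/6 mice aged 8 to 10 weeks. Every culture was activated on plates coated with anti-CD3 and given anti-CD28, each at 1 μg/ml, in medium with fetal calf serum, and was collected on day 3. Th0 cells received nothing more, Th17 cells received 30 ng/ml IL6, 5 ng/ml TGFβ1, and 10 μg/ml each of anti-IL4 and anti-IFNγ, and iTreg cells received 10 ng/ml IL2 and 10 ng/ml TGFβ1 according to the sample labels, while the study's methods give another dose of TGFβ1 for iTreg cells. Each group had 4 libraries from 4 independent cultures, 12 in all, and the Th0 libraries served both comparisons.

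The values were FPKM, that is, fragment counts divided by gene length and library depth, so levels of different genes can be compared on this scale. Libraries are named by their column headings (M22_1, M29_1, M42_1, and M43_1 for Th0, and the same beginnings with _5 for Th17 and _4 for iTreg). The beginnings recur in every group, but neither the labels nor the study's methods explain them. The labels number the experiments and the study tested its counts in a pair-wise design, but no heading carries an experiment number. The main tests here therefore compared the groups without pairing, which departs from the study's own design. Libraries with the same beginning did deviate together, and a fit that takes the beginning as a replicate block was therefore added after the data were seen. The block leaves each log2 fold change as it is and narrows the standard error of every tested member, and its adjusted p is given wherever it changes a call. Relative depth was inferred, for lack of counts, from ratios between libraries among genes below 1 FPKM. It ranged from 0.843 to 1.08 of the median library in the Th17 table and from 0.825 to 1.19 in the iTreg table. The T cell gene Cd3d was at 168 to 264 FPKM in Th17, 202 to 229 FPKM in iTreg, and 258 to 429 FPKM in Th0 libraries of the Th17 table. The cytokine gene Il17f was at 281 to 788 FPKM in Th17 libraries, at 26.9 to 99.2 FPKM in iTreg libraries, and at most 0.184 FPKM in Th0. The iTreg markers Ikzf4 and Itgae were at 20.2 to 42.2 and 2.62 to 16.2 FPKM in iTreg libraries, and at 3.46 to 6.89 and 0.185 to 0.994 FPKM in Th0 libraries of the same table. Th17 libraries were at 5.42 to 17.3 FPKM for Ikzf4, overlapping Th0 libraries of the Th17 table (3.49 to 6.97 FPKM). They were at 4.74 FPKM or more for Itgae (median 13.4 FPKM), above those Th0 libraries (at most 1.00 FPKM). Each polarized group thus also held mRNA of a marker gene of the other, Itgae in Th17 cells and Il17f in iTreg cells. Of 4 B cell markers only Cd79a was listed (0.505 to 3.84 FPKM over all libraries), of 4 myeloid markers only Itgam (at most 0.628 FPKM, Th17 table only), of 2 CD8 T cell markers only Cd8b1 (2.19 to 6.60 FPKM), and of 2 NK cell markers none. In bulk RNA, fewer cells of a type and less RNA per cell cannot be told apart.

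In Th17 cells, a single member passed the test without pairing, the sterol carrier gene Stard4, which fell, and no member rose. In iTreg cells, 5 members rose and none fell. The raised genes were Insig1, Fdft1, Sc5d, Mvd, and Abcg1, that is, a feedback regulator, 3 enzymes of sterol synthesis, and a sterol exporter. With the replicate block these 6 calls stood, and the members past the threshold numbered 6 up and 6 down in Th17 cells and 11 up and 4 down in iTreg cells. In the GENCODE annotation of GRCm38 they lie at chr5:28071363-28078662 (Insig1, plus strand), chr14:63145150-63179578 (Fdft1, minus strand), chr9:42251595-42264256 (Sc5d, minus strand), chr8:122433601-122443422 (Mvd, minus strand), and chr17:31057675-31117988 (Abcg1, plus strand), and values count reads on their exons. Differences were tested with limma on log2(FPKM + 1) over all tested genes, with Benjamini-Hochberg adjusted p under 0.05 as the threshold, and each log2 fold change is given with its standard error (SE). At low FPKM this scale makes a change look smaller than it was.

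Against the background of all genes, the members changed rarely in Th17 cells in the test without pairing, but at about the share of all genes with the block. Of all tested genes, 10.6% were up-regulated and 8.69% down-regulated in Th17 cells, where limma called 0 and 1 of the 34 members, and 4 members (11.8%) had an unadjusted p under 0.05, beside 32.4% of all tested genes. In iTreg cells, 8.36% of all tested genes were up-regulated and 8.21% down-regulated, where limma called 5 (14.7%) and 0 of the 34 members, and 8 members (23.5%) had an unadjusted p under 0.05, beside 30.1% of all tested genes. With the replicate block, limma called 19.2% of all tested genes up and 18.6% down in Th17 cells, and 6 (17.6%) and 6 (17.6%) of the 34 members. With the block in iTreg cells it called 20.9% of all tested genes up and 20% down, and 11 (32.4%) and 4 (11.8%) of the members, among them 6 of the 11 enzymes of the sterol arm up and 1 down. Ranges of the 2 groups were fully separate for 0 members higher and 1 member lower in Th17 cells (13.2% and 10.6% of all tested genes), and for 5 members higher and 1 member lower in iTreg cells (11.7% and 11% of all tested genes). The median log2 fold change of the members was -0.05 in Th17 cells and 0.06 in iTreg cells, beside 0.00 and 0.01 over all tested genes.

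**Figure D1:**
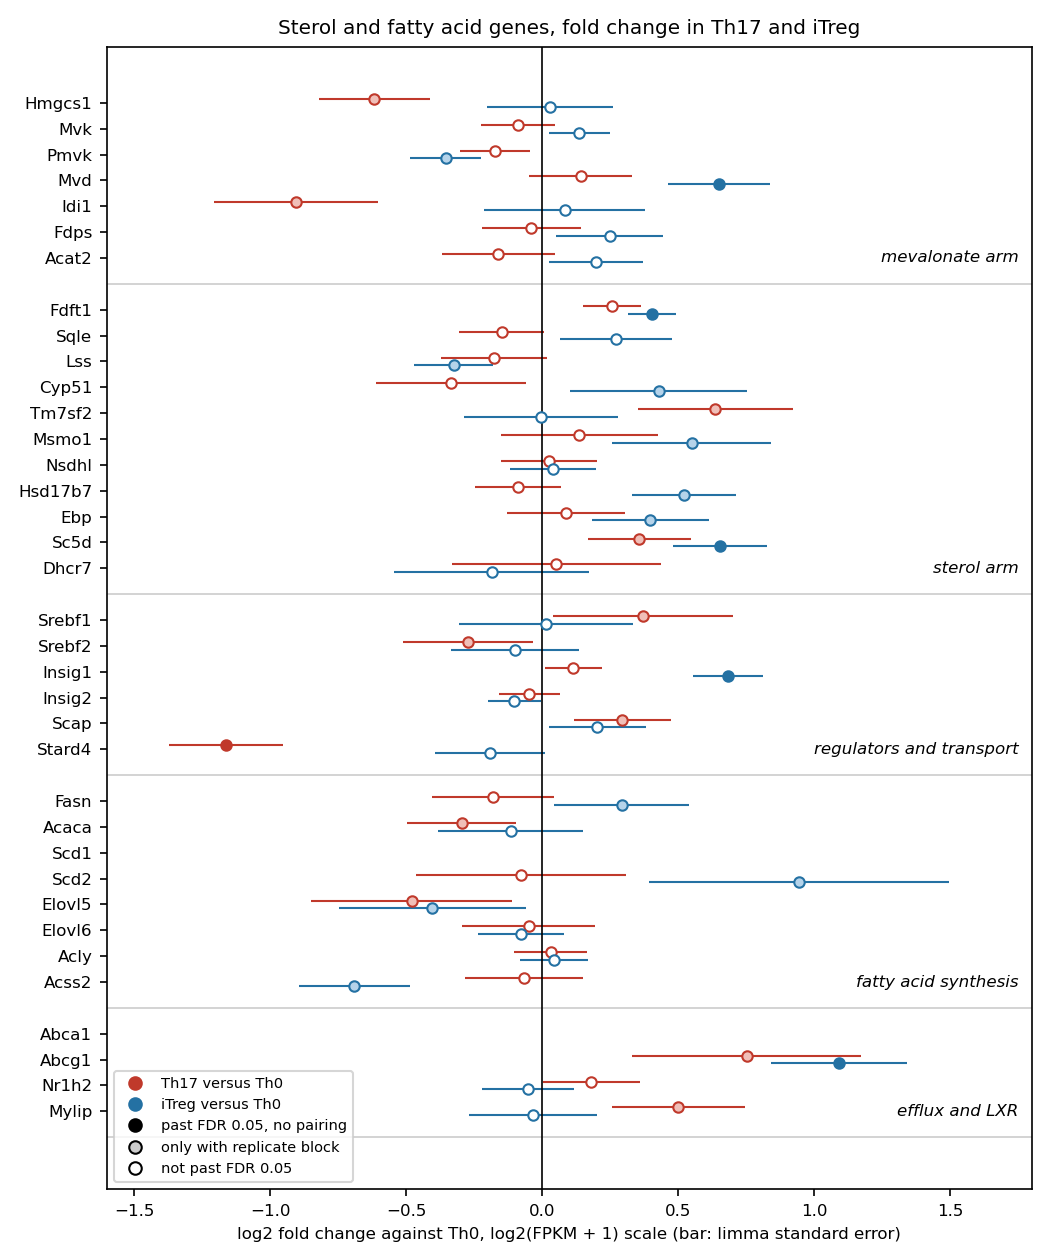
Log2 fold change against Th0 on the log2(FPKM + 1) scale for each tested member, ordered by role, with Th17 in red, iTreg in blue, bars for the limma standard error, filled points for genes past the threshold without pairing, and pale points for genes past it only with the replicate block. Open points passed in neither fit. Stard4 is the filled red point at -1.16, and the filled blue points are Mvd, Fdft1, Sc5d, Insig1, and Abcg1, between 0.40 and 1.09. Scd1 and Abca1 have no point, since their low values were not tested.

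The direction of the difference between libraries with the same heading beginning was tallied as a description. In Th17 cells, 7 members (20.6%) were higher than Th0 for all 4 beginnings and 9 members (26.5%) lower, beside 28.4% and 26.9% of all tested genes. In iTreg cells, 15 members (44.1%) were higher for all 4 beginnings and 4 members (11.8%) lower, beside 29.1% and 27.4% of all tested genes. The members that were higher in every iTreg library than in its Th0 counterpart lay mostly in sterol synthesis, with 10 of its 18 enzymes (55.6%), and the sterol arm alone held 7 of 11. Median log2 fold changes in iTreg cells were 0.40 for the sterol arm, 0.14 for the mevalonate arm, -0.08 for tested genes of fatty acid synthesis, -0.04 for regulators and carriers, and -0.03 for tested genes of efflux and LXR. The last median became 0.53 with no filter on low values, when Abca1 entered the group. In Th17 cells the same groups had medians of 0.05, -0.16, -0.08, 0.03, and 0.50. Single libraries moved these medians. With a library left out, the iTreg median of the sterol arm ran from 0.19 (without M42_1) to 0.43, with 0.20 without M43_4, and that of the mevalonate arm from 0.08 (without M42_4) to 0.24 (without M29_4). The other 3 iTreg medians changed sign, with ranges of -0.21 to 0.09 for fatty acid synthesis, -0.13 to 0.15 for regulators and carriers, and -0.16 to 0.13 for efflux and LXR. In Th17 cells the median of efflux and LXR ran from 0.33 (without M43_5) to 0.67 (without M42_5), that of the mevalonate arm from -0.25 (without M42_5) to -0.05 (without M22_5), that of fatty acid synthesis from -0.29 (without M43_5) to -0.01 (without M22_1), and those of the sterol arm (-0.10 to 0.19) and of regulators and carriers (-0.01 to 0.09) changed sign.

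**Figure D2:**
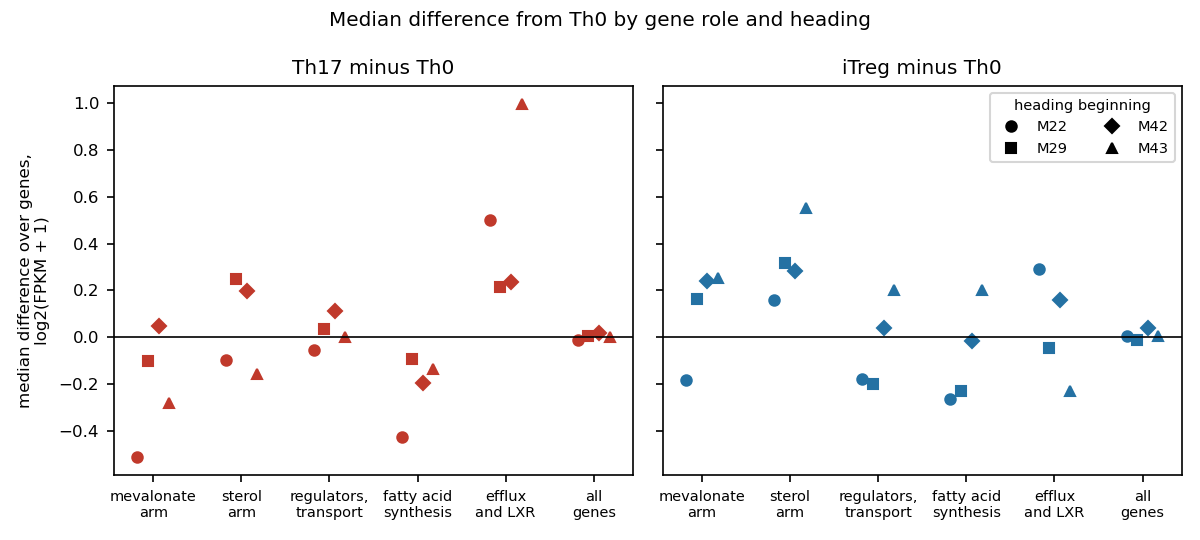
Median difference in log2(FPKM + 1) between the Th17 (left) or iTreg (right) library and the Th0 library with the same heading beginning, for the tested members of each role and for all tested genes; each point is 1 heading beginning. The sterol arm is above 0 for all 4 beginnings in iTreg cells (0.16 to 0.55) and for 2 of 4 in Th17 cells, while all genes stay between -0.01 and 0.04.

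The letters of known regulatory motifs were counted in the promoters of the members, since SREBP acts on sterol genes together with NF-Y and Sp1. The 250 bases before the RefSeq start (GRCm38.p6) were searched on both strands for 3 motifs. These were 1 spelling of the sterol response element (TCACNCCAC, where N is any base), the NF-Y box CCAAT, and the GC box GGGCGG. RefSeq promoters were matched for 29 of the 36 members, without Stard4, Scd1, Scd2, Fdft1, Fdps, Abcg1, and Sqle. CCAAT was found in 14 of 15 matched genes of sterol synthesis (93.3%), in 3 of 6 of fatty acid synthesis, and in 1 of 3 of efflux and LXR, beside 37.5% of all genes with a promoter and 41% of the genes tested here. GGGCGG was found in 14 of 15 matched genes of sterol synthesis, beside 35.4% of all genes and 65.7% of the genes tested here. TCACNCCAC was found in 1 of 29 matched members, Hmgcs1, and in 1.22% of all genes. A match is a description of letters and not of a bound site. Other spellings of the sterol response element were not searched for, so a gene without a match was not shown to lack the element.

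The 150 bases before the start are shown for 4 members, with all 3 motifs in capitals: Hmgcs1, the gene with the TCACNCCAC match (chr13:119690201-119690350, plus strand), Mvd (chr8:122443423-122443572, minus strand) and Sc5d (chr9:42264301-42264450, minus strand), which rose in iTreg cells, and Abca1 (chr4:53159896-53160045, minus strand), an exporter. Each reads 5′ to 3′ towards the gene.
Hmgcs1: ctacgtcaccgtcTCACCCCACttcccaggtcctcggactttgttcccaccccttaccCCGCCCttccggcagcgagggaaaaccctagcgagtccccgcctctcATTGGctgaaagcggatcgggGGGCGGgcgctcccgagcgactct
Mvd: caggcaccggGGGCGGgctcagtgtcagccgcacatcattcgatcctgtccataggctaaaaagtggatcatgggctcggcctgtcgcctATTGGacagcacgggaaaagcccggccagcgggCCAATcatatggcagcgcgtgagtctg
Sc5d: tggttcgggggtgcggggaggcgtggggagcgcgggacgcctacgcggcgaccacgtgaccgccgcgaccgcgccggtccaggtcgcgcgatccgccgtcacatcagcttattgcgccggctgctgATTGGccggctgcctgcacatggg
Abca1: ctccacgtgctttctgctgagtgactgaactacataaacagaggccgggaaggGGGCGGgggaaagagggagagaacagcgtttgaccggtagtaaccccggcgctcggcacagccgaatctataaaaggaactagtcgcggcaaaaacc
In Hmgcs1 the TCACNCCAC match began 137 bases before the start and an NF-Y box, on the opposite strand, 45 bases before it. Mvd held NF-Y boxes at 60 and 27 bases before the start, and Sc5d held 1 at 24 bases before it. The shown stretch of Abca1 held no NF-Y box, and neither did the same stretch of Insig1, which rose in iTreg cells. Further upstream, within the bases searched, Insig1 did hold an NF-Y box, 216 bases before the start, and Abca1 held none. Abca1, not tested in the main fit, also lay above Th0 in iTreg libraries without overlap. Lss, lower in iTreg cells for all 4 beginnings, held 1 NF-Y box, 62 bases before the start. No link between the boxes and the changes was tested.

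Enzymes of the mevalonate arm, which turn acetyl-CoA into farnesyl pyrophosphate, included the most highly expressed sterol enzymes. Hmgcs1, which makes HMG-CoA, and Idi1, which isomerizes isopentenyl pyrophosphate, averaged 47.0 ± 11.3 and 66.2 ± 21.0 FPKM in Th0 cells of the Th17 table (SD, n = 4), while Mvk and Pmvk, the mevalonate kinases, averaged 7.75 ± 0.907 and 11.9 ± 1.12 FPKM.

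Idi1 and Hmgcs1 were lower in the Th17 library than in the Th0 library of every heading beginning, but neither passed the test without pairing. Idi1 was at 25.6, 27.4, 52.6, and 32.9 FPKM in Th17 libraries M22_5, M29_5, M42_5, and M43_5, and at 67.7, 36.4, 84.4, and 76.2 FPKM in Th0 libraries M22_1, M29_1, M42_1, and M43_1. The groups overlapped because the Th0 library M29_1 was low and the Th17 library M42_5 was high. The log2 fold change of Idi1 was -0.91 (SE 0.30, limma adjusted p = 0.0685). Hmgcs1 was at 27.3, 26.0, 37.7, and 28.4 FPKM in these Th17 libraries and at 49.9, 30.3, 53.2, and 54.7 FPKM in these Th0 libraries. The same libraries, M29_1 and M42_5, made its groups overlap, and the log2 fold change of Hmgcs1 was -0.62 (SE 0.20, limma adjusted p = 0.0678). Without M29_1, both genes passed the threshold, with log2 fold changes of -1.17 (limma adjusted p = 0.0141) for Idi1 and -0.81 (limma adjusted p = 0.00711) for Hmgcs1, and without M42_5 with -1.12 (limma adjusted p = 0.0235) and -0.73 (limma adjusted p = 0.0390). Both genes fell in the fit with the replicate block, with limma adjusted p of 0.00707 for Idi1 and 0.0124 for Hmgcs1. In iTreg cells the log2 fold changes of Idi1 and Hmgcs1 were 0.08 (SE 0.30) and 0.03 (SE 0.23). Up to 21.9% of the 100-base windows of Idi1 transcripts also occur in other genes, chiefly Gm13502, and 12.1% of the exonic bases of Hmgcs1 lie in Gm48342, and counting used no strand.

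Mvd, which decarboxylates mevalonate pyrophosphate, rose in iTreg cells. It was at 19.4, 18.0, 22.5, and 22.2 FPKM in iTreg libraries M22_4, M29_4, M42_4, and M43_4, and at 15.9, 8.46, 12.3, and 15.4 FPKM in the Th0 libraries. All iTreg libraries were above all Th0 libraries. This is a log2 fold change of 0.65 (SE 0.19, limma adjusted p = 0.0461). This call was lost with a pseudocount of 0.1, with either scaling between libraries, and in 5 of the 8 fits that left out a library, with adjusted p up to 0.107, while with the replicate block limma gave an adjusted p of 0.00709. In Th17 cells Mvd was at 12.1 to 15.6 FPKM, within the range of Th0, with a log2 fold change of 0.14 (SE 0.19).

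No other gene of the mevalonate arm passed in either comparison without pairing. Pmvk was lower for all 4 beginnings in both tables, with log2 fold changes of -0.17 in Th17 cells (limma adjusted p = 0.387) and -0.36 in iTreg cells (limma adjusted p = 0.107), and without the iTreg library M43_4 it passed as lower in iTreg cells, at -0.46 (limma adjusted p = 0.0429), as it did with the replicate block (limma adjusted p = 0.0339). Mvk, Fdps (farnesyl pyrophosphate synthase), and Acat2 (cytosolic acetoacetyl-CoA thiolase) had log2 fold changes of -0.16 to -0.04 in Th17 cells (SE 0.14 to 0.21) and of 0.14 to 0.25 in iTreg cells (SE 0.11 to 0.20). Of the windows of Acat2 transcripts, 28.9% also occur in other genes, mainly Acat3, and 26.7% of the exonic bases of Fdps are shared, mainly with Gm43738.

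**Figure D3:**
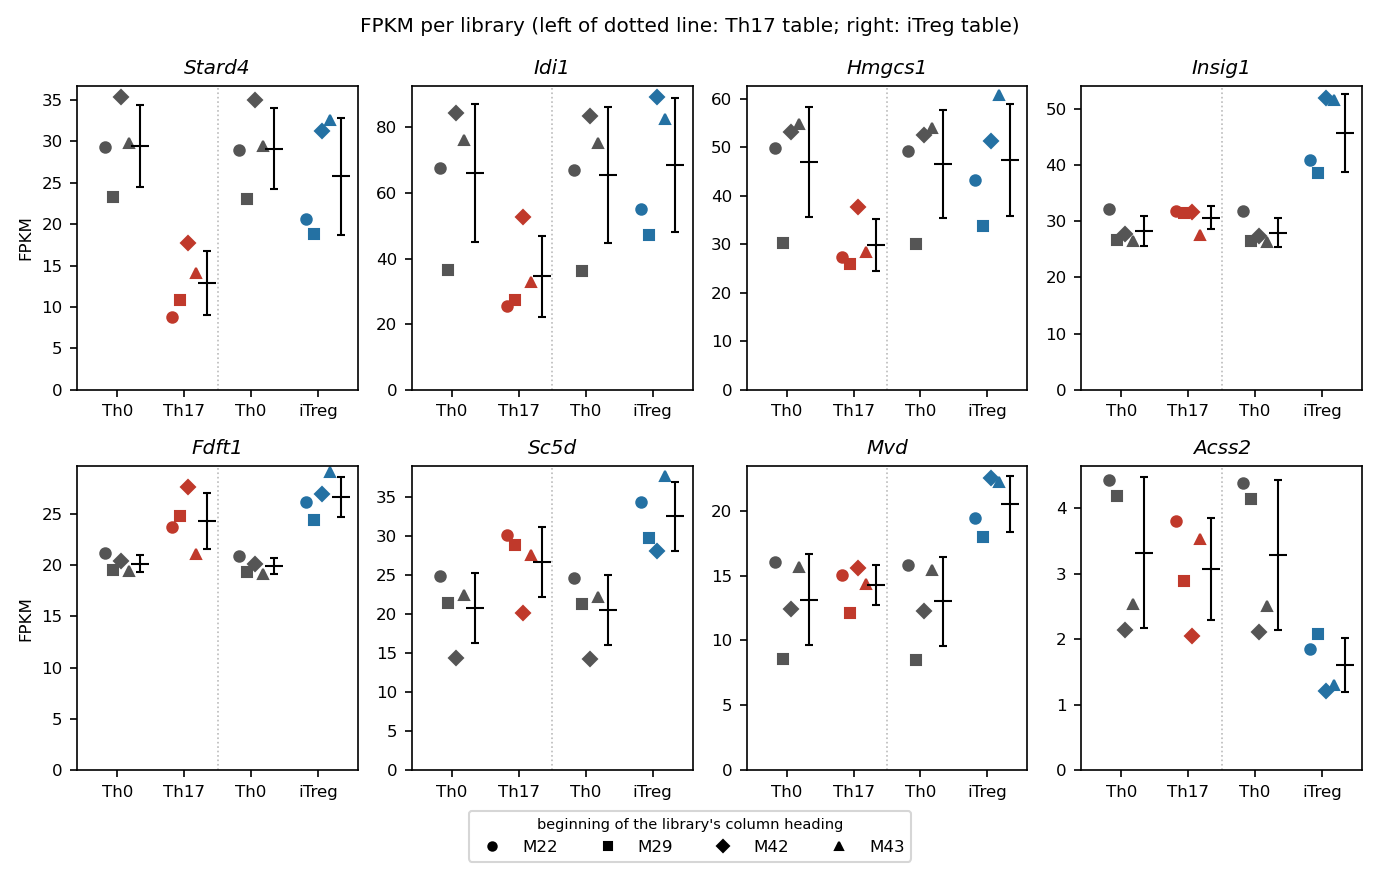
FPKM (y axis, from 0) in each library for 8 members, with Th0 and Th17 libraries of the Th17 table left of the dotted line and Th0 and iTreg libraries of the iTreg table right of it; symbols mark the beginning of the column heading and bars the mean and SD of 4 libraries. Stard4 in Th17 cells (8.83 to 17.7) lies below all Th0 libraries, and Insig1, Fdft1, Sc5d, and Mvd in iTreg cells lie above all Th0 libraries.

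The sterol arm takes farnesyl pyrophosphate through squalene and lanosterol to cholesterol. In iTreg cells 8 of its 11 enzymes had a log2 fold change above 0, beside 5270 of all 10208 tested genes. Among the 8, Nsdhl was near 0 (0.04), and 2 of them, Fdft1 and Sc5d, rose in the test without pairing. Fdft1, squalene synthase and the first enzyme committed to sterols, was at 26.2, 24.4, 26.9, and 29.1 FPKM in iTreg libraries and at 20.9, 19.4, 20.1, and 19.1 FPKM in Th0 libraries. The libraries of each group lay close together, and the groups did not overlap. This was a rise of 0.40 on the log2 scale (SE 0.09, limma adjusted p = 0.0160), and it stayed past the threshold whichever library was left out, with adjusted p of 0.0195 to 0.0492. In Th17 cells Fdft1 was at 21.1 to 27.6 FPKM and higher for all 4 beginnings, with a log2 fold change of 0.26 (SE 0.11, limma adjusted p = 0.131), and a Th17 library overlapped Th0. Of its exonic bases, 18.3% are shared with other genes, chiefly Ctsb.

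Sc5d, lathosterol oxidase, which introduces the last double bond before 7-dehydrocholesterol, rose as well. It was at 34.4, 29.7, 28.1, and 37.7 FPKM in iTreg libraries and at 24.6, 21.3, 14.2, and 22.1 FPKM in Th0 libraries. The iTreg libraries were all higher, and M42 gave the lowest value of both groups. On the log2 scale it rose by 0.65 (SE 0.17, limma adjusted p = 0.0341), and the call was lost in 5 of 8 fits without a library, with adjusted p up to 0.0908. Th17 libraries were at 20.2 to 30.1 FPKM, with a log2 fold change of 0.36 (SE 0.19, limma adjusted p = 0.232, and 0.0144 with the replicate block).

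Other enzymes of the sterol arm were higher for all 4 beginnings in iTreg cells without passing the unpaired test. They were Sqle (squalene epoxidase), Cyp51 (lanosterol 14-alpha-demethylase), Msmo1 (the C4 methyl oxidase), Hsd17b7 (a 3-keto reductase), and Ebp (the sterol isomerase), with log2 fold changes of 0.27, 0.43, 0.55, 0.52, and 0.40. Their adjusted p from limma were 0.435, 0.435, 0.252, 0.104, and 0.259. With the replicate block, Cyp51, Msmo1, Hsd17b7, and Ebp rose (limma adjusted p = 0.0108, 0.00897, 0.00323, and 0.0108), and Sqle was short of the threshold (limma adjusted p = 0.0619). In the unpaired test Hsd17b7 was nearest to the threshold, at 5.91, 4.80, 5.34, and 8.79 FPKM in iTreg libraries and at 3.55, 3.01, 4.20, and 5.18 FPKM in Th0 libraries. Only the Th0 library M43_1 reached into the iTreg range. Cyp51 was the most variable of them, at 33.6 to 81.3 FPKM in iTreg libraries and 22.4 to 53.1 FPKM in Th0.

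The sterol arm was not uniformly higher. Lss, lanosterol synthase, was lower for all 4 beginnings in iTreg cells, at 7.41 to 10.1 FPKM beside 8.87 to 12.1 FPKM in Th0, with a log2 fold change of -0.33 (SE 0.14, limma adjusted p = 0.169), and it fell with the replicate block (limma adjusted p = 0.0232). Nsdhl and Dhcr7, which act late in the pathway, had log2 fold changes of 0.04 and -0.19 in iTreg cells and of 0.03 and 0.05 in Th17 cells, all within 1 SE (0.16 to 0.38) of the unpaired test, and passed in neither fit. Tm7sf2, a sterol C14 reductase, had log2 fold changes of -0.01 (SE 0.28) in iTreg cells and 0.64 (SE 0.28, limma adjusted p = 0.160) in Th17 cells. It was at 11.4, 9.97, 9.25, and 7.74 FPKM in Th17 libraries and at 6.77, 10.8, 3.87, and 3.69 FPKM in Th0 libraries. The Th0 library M29_1 was the exception among the Th0 libraries, and without it Tm7sf2 passed the threshold, at 0.90 (limma adjusted p = 0.0205), as it did with the replicate block (limma adjusted p = 0.0379). Of its exonic bases, 12.1% are shared, mainly with Vps51. In Th17 cells no gene of the sterol arm passed the unpaired test, and Cyp51 and Sqle were lower for all 4 beginnings, at -0.33 and -0.15, short of the threshold in both fits.

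Stard4, which moves cholesterol between membranes in the cytosol, fell in Th17 cells. It was at 8.83, 10.8, 17.7, and 14.1 FPKM in Th17 libraries and at 29.3, 23.3, 35.3, and 29.8 FPKM in Th0 libraries. Every Th17 library was below every Th0 library, and the mean fell to 0.437 of that of Th0. On the log2 scale Stard4 fell by 1.16 (SE 0.21, limma adjusted p = 0.00526). Stard4 passed the threshold in all alternative settings run here, also at an FDR of 0.01, and whichever library was left out, with log2 fold changes of -1.32 to -1.01. In iTreg cells it was at 20.6, 18.9, 31.2, and 32.5 FPKM and overlapped Th0 (23.0 to 34.9 FPKM), with a log2 fold change of -0.19 (SE 0.20, limma adjusted p = 0.592).

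Insig1, the INSIG protein that is itself induced by SREBP, rose in iTreg cells. It was at 40.9, 38.6, 51.8, and 51.6 FPKM in iTreg libraries and at 31.8, 26.5, 27.3, and 26.2 FPKM in Th0 libraries. The groups did not overlap, and the largest differences were in M42 and M43. On the log2 scale it rose by 0.68 (SE 0.13, limma adjusted p = 0.00771), and Insig1 was the only raised member that also passed the unpaired test at an FDR of 0.01. In Th17 cells it was at 27.6 to 31.9 FPKM, with a log2 fold change of 0.11 (SE 0.10, limma adjusted p = 0.495). Its relative Insig2 was at 6.88 to 9.14 FPKM in the Th17 table and 6.95 to 9.06 FPKM in the iTreg table, with log2 fold changes of -0.05 and -0.10.

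Genes of the SREBP factors themselves did not pass in either comparison without pairing, and moved in opposite directions in Th17 cells with the replicate block. Srebf2 was the most highly expressed member in Th0 cells, at 86.7 ± 20.6 FPKM in the Th17 table (SD, n = 4), and its log2 fold changes were -0.27 (SE 0.24) in Th17 and -0.10 (SE 0.24) in iTreg cells. It was lower in Th17 cells for all 4 beginnings, and fell there with the block (SE 0.08, limma adjusted p = 0.0316). Srebf1, which encodes SREBP1, was higher in Th17 cells for all 4 beginnings, at 45.5, 41.0, 19.1, and 41.8 FPKM beside 35.2, 30.0, 15.1, and 32.1 FPKM in Th0. The differences within each beginning were 0.32 to 0.44 on the log2 scale, but libraries with M42 were far below the others in both groups, and the log2 fold change of 0.37 had an SE of 0.33 (limma adjusted p = 0.483). With the block the SE was 0.08, and Srebf1 rose (limma adjusted p = 0.00992). In iTreg cells the log2 fold change of Srebf1 was 0.01. Scap was higher for all 4 beginnings in both tables, with log2 fold changes of 0.29 (limma adjusted p = 0.293) in Th17 and 0.20 (limma adjusted p = 0.509) in iTreg cells, and with the block it rose in Th17 cells (limma adjusted p = 0.0288) and stayed short of the threshold in iTreg cells (limma adjusted p = 0.0547).

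Fatty acid synthesis runs from citrate or acetate to palmitate, which is then desaturated and elongated. None of the 7 tested genes of this group passed in either comparison without pairing. With the replicate block 2 (28.6%) fell and none rose in Th17 cells, beside 18.6% and 19.2% of all tested genes. In iTreg cells 2 (28.6%) rose and 2 (28.6%) fell with the block, beside 20.9% and 20% of all tested genes. Acly, which cleaves citrate, Acaca, which makes malonyl-CoA, and Fasn, fatty acid synthase, had log2 fold changes of 0.03, -0.30, and -0.18 in Th17 cells and of 0.04, -0.12, and 0.29 in iTreg cells. Acly averaged 74.8 ± 6.83 FPKM in Th0 and 76.9 ± 11.9 FPKM in Th17 cells, and the SE of its log2 fold change was 0.13. Fasn was higher in iTreg cells for all 4 beginnings, at 41.3, 34.4, 51.1, and 66.6 FPKM beside 37.5, 25.5, 44.9, and 49.0 FPKM (limma adjusted p = 0.491). With the block, Acaca fell in Th17 cells (limma adjusted p = 0.0432) and Fasn rose in iTreg cells (limma adjusted p = 0.0264). Of the windows of Acaca transcripts, 23.7% also occur in other genes, mainly Gm5182.

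Acss2, which makes acetyl-CoA from acetate, was low and did not overlap between iTreg and Th0 cells. It was at 1.84, 2.07, 1.21, and 1.30 FPKM in iTreg libraries and at 4.38, 4.14, 2.11, and 2.50 FPKM in Th0 libraries. The highest iTreg library, M29_4, lay just under the lowest Th0 library, M42_1. The log2 fold change was -0.69 (SE 0.20, limma adjusted p = 0.0508), just short of the threshold. It was called lower with a pseudocount of 0.1, without the filter on low values, with either scaling, and without M42_1, with adjusted p of 0.0272 to 0.0498, and with the replicate block (limma adjusted p = 0.00128). In Th17 cells Acss2 was at 2.05 to 3.81 FPKM, with a log2 fold change of -0.07 (SE 0.22).

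The stearoyl-CoA desaturases, which introduce the double bond of oleate, were higher in iTreg cells in every library pair by heading, but the spread was wide. Scd2 was at 38.0, 15.1, 21.3, and 95.9 FPKM in iTreg libraries and at 20.3, 12.1, 10.4, and 30.2 FPKM in Th0 libraries. M43 gave the highest value of both groups, and the log2 fold change of 0.94 had an SE of 0.55 (limma adjusted p = 0.297). Scd2 rose with the replicate block (SE 0.19, limma adjusted p = 0.00924). Scd1 was at 1.95, 0.523, 1.70, and 4.11 FPKM in iTreg libraries and at 0.245, 0.0261, 0.199, and 0.175 FPKM in Th0 libraries. All iTreg libraries were above all Th0 libraries, but too few values exceeded 1 FPKM for the filter, and the gene was called only where the filter was dropped (log2 fold change 1.28, limma adjusted p = 0.0237) or in fits without M29_4 or M42_1, where it asked for 3 of 7 libraries. All values of Scd1 above 1 FPKM were in iTreg libraries. It entered these 2 fits only through the group where it was high, so its calls there are no separate evidence of a rise. In Th17 cells Scd2 was at 10.0 to 26.3 FPKM, with a log2 fold change of -0.08 (SE 0.39), and Scd1 was not listed. Few windows were counted as shared, 0.879% for Scd2 (mainly with Scd1) and 1.61% for Scd1 (mainly with Scd3). Windows common to Scd1 and Scd2 were counted under Scd2 alone, so the value for Scd1 leaves them out.

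Of the elongases, neither passed without pairing. Elovl5, which elongates polyunsaturated fatty acids, was lower for all 4 beginnings in both tables, with log2 fold changes of -0.48 (SE 0.37) in Th17 and -0.40 (SE 0.34) in iTreg cells, and it fell in both with the replicate block (limma adjusted p = 0.0178 and 0.00753). Its Th0 values of 39.3, 38.5, 17.0, and 38.0 FPKM in the Th17 table had M42_1 far below the others. Elovl6, which elongates palmitate, was at 1.11 to 4.09 FPKM in all libraries, with log2 fold changes of -0.05 and -0.08.

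Abcg1, which exports sterols to high-density lipoprotein and is a known LXR target, rose in iTreg cells. It was at 7.05, 4.68, 3.24, and 6.57 FPKM in iTreg libraries and at 2.27, 2.43, 0.936, and 2.29 FPKM in Th0 libraries. The groups did not overlap, and M42 was lowest in both. On the log2 scale Abcg1 rose by 1.09 (SE 0.25, limma adjusted p = 0.0193), and it was not past the threshold without the iTreg library M22_4 or M43_4, with adjusted p up to 0.0567. In Th17 cells Abcg1 was at 6.21, 3.07, 1.20, and 8.17 FPKM, higher for all 4 beginnings but overlapping Th0 through M42_5. The log2 fold change there was 0.75 (SE 0.42, limma adjusted p = 0.257), and 1.14 (limma adjusted p = 0.0335) without M42_5. Abcg1 rose in Th17 cells too with the replicate block (limma adjusted p = 0.0416).

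Abca1, which passes cholesterol to apolipoprotein A-I and is also known as an LXR target, was near the lower limit of the tables and was not tested in either comparison. It was at 0.143, 0.0372, 0.0421, and 0.104 FPKM in Th0 libraries of the Th17 table and at 2.25, 0.830, 0.145, and 0.715 FPKM in Th17 libraries. In iTreg libraries it was at 1.29, 0.543, 0.995, and 3.95 FPKM. Both polarized groups lay above Th0 without overlap, in Th17 cells by a narrow margin in M42_5. With no filter on low values, the log2 fold change was 1.17 (limma adjusted p = 0.0332) in iTreg and 0.77 (limma adjusted p = 0.0795) in Th17 cells.

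**Figure D4:**
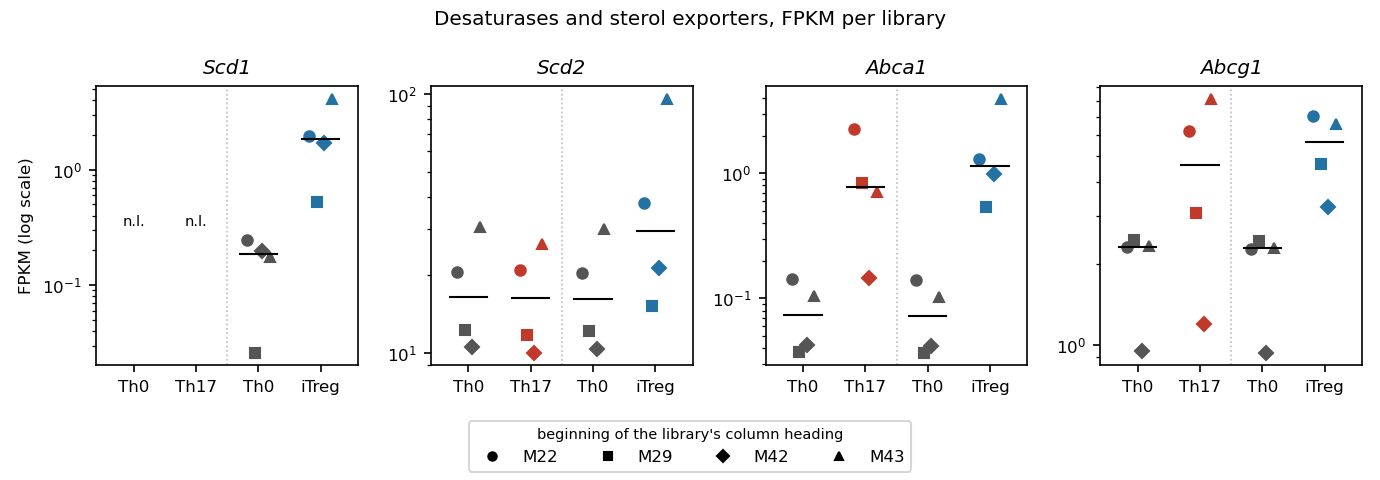
FPKM on a log axis in each library for the desaturases Scd1 and Scd2 and the exporters Abca1 and Abcg1, with the Th17 table left and the iTreg table right of the dotted line, and lines for the median of 4 libraries (n.l., not listed in that table). Scd1, Abca1, and Abcg1 in iTreg cells lie above all Th0 libraries, and Scd2 spans 15.1 to 95.9 FPKM in iTreg cells.

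The remaining genes of this group did not pass without pairing. Nr1h2, which encodes LXR beta, was at 50.4 ± 9.33 FPKM in Th0 and 57.5 ± 11.8 FPKM in Th17 cells (SD, n = 4). Its log2 fold change was 0.18 (SE 0.18) in Th17 and -0.05 in iTreg cells. Mylip, an LXR-induced ubiquitin ligase, had log2 fold changes of 0.50 (SE 0.25, limma adjusted p = 0.197) in Th17 and -0.03 (SE 0.23) in iTreg cells, and rose in Th17 cells with the replicate block (limma adjusted p = 0.0349). All 3 tested genes of efflux and LXR were higher in Th17 cells for all 4 beginnings. In iTreg cells this held for Abcg1 alone of the 3.

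No test was made between Th17 and iTreg cells, whose values come from separately scaled tables. Side by side, Stard4 had log2 fold changes of -1.16 and -0.19 in Th17 and iTreg cells, Idi1 of -0.91 and 0.08, Hmgcs1 of -0.62 and 0.03, and Insig1 of 0.11 and 0.68. Abcg1 was above 0 in both, at 0.75 and 1.09. Both comparisons use the same Th0 libraries.

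The members varied among libraries in a way that was shared across the groups. For 13 of the 34 members tested in both tables (38.2%), the library with the beginning M42 was the lowest of its group in Th0, Th17, and iTreg cells alike, beside 13.9% of all genes tested in both. The 13 genes were Srebf1, Srebf2, Scap, Cyp51, Sqle, Msmo1, Ebp, Sc5d, Dhcr7, Elovl5, Acss2, Abcg1, and Mylip. Hmgcs1, Mvd, Acat2, and Acaca were lowest in M29 in all 3 groups. Within iTreg cells alone, M43_4 was the highest library for 21 of 34 members (61.8%), beside 27.2% of all genes. M29_4 was the lowest iTreg library for 18 of 34 (52.9%), beside 27.3% of all genes. The within-group SD on the log2 scale was 0.93 for Scd2 in the iTreg table and 0.64 for Dhcr7 in the Th17 table, but 0.11 for Insig1 and 0.12 for Fdft1 in the Th17 table. Differences shared in this way widen the standard errors of the test without pairing and are taken up by the replicate block.

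Other lipid genes were counted beside the members. Of 25 tested genes of lipid supply outside the 36, Arl4c, an LXR target that encodes a small GTPase, rose in Th17 cells (28.5 ± 8.25 beside 13.4 ± 1.02 FPKM, log2 fold change 1.00, limma adjusted p = 0.00535). In iTreg cells Acsl4, an acyl-CoA synthetase, rose (52.5 ± 15.3 beside 28.1 ± 5.03 FPKM, log2 fold change 0.85, limma adjusted p = 0.0288), and none of the 25 fell in either. The gene that rose made 4% of the 25 in each comparison, beside 10.6% of all tested genes in Th17 and 8.36% in iTreg cells. Of 18 genes of mitochondrial fatty acid oxidation, 5 (27.8%) fell and none rose in Th17 cells, beside 8.69% and 10.6% of all tested genes. In iTreg cells 2 (11.1%) fell and 1 (5.56%) rose, beside 8.21% and 8.36% of all tested genes. With the replicate block, 5 of the 25 (20%) rose and 2 (8%) fell in Th17 cells. In iTreg cells 8 (32%) rose and 1 (4%) fell. Of the 18, 3 (16.7%) rose and 5 (27.8%) fell in Th17 cells, and 2 (11.1%) rose and 5 (27.8%) fell in iTreg cells. The block called 19.2% of all tested genes up and 18.6% down in Th17 cells, and 20.9% and 20% in iTreg cells. Those that fell in the unpaired test in Th17 cells were Decr1, Acaa2, Etfa, Etfb, and Acadl, the last 2 of which are named here after their values were seen, and in iTreg cells Decr1 and Etfa fell and Eci1 rose. Decr1, a dienoyl-CoA reductase, fell in both, from 17.6 ± 5.27 to 4.48 ± 0.506 FPKM in Th17 cells (limma adjusted p = 0.000358) and from 17.4 ± 5.21 to 5.65 ± 0.624 FPKM in iTreg cells (limma adjusted p = 0.00136).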

How the data were processed

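RNA from 12 cultures was sequenced as pairs of 100-base reads. The authors mapped the reads with TopHat2 2.0.14 to mm10, counted them on exons with HTSeq-count in union mode and without strand, removed genes with low CPM, tested counts with edgeR, and deposited FPKM values for 8 libraries in each of 2 tables. The deposited columns of the authors' own fold changes and p-values were not used. Groups were taken from the labels and columns from the endings of their headings. Within each table, genes above 1 FPKM in 4 or more of the 8 libraries were tested with limma 3.58.1 (R 4.3.3) on log2(FPKM + 1), with a Benjamini-Hochberg adjusted p under 0.05 as the threshold, after a check on simulated data, and tallies used Python 3.11.15. Alternatives were a pseudocount of 0.1, no filter, limma-trend, median and upper quartile scaling, an FDR of 0.01, and leaving out each library. Libraries with the same heading beginning deviated together from their group means (correlation across genes 0.450 to 0.784 in the Th17 table and 0.662 to 0.769 in the iTreg table). For different beginnings the correlation was -0.590 to 0.434 (median -0.318) in the Th17 table and -0.576 to 0.248 (median -0.344) in the iTreg table. Deviations from a group mean cancel within the group, so positive values for the same beginning pull the others down. The negative medians are thus not separate evidence. Because libraries with the same beginning deviated together, a fit with the beginning as a replicate block was added after the data were seen. The members, the other lists, and the motifs were chosen with earlier results of these data known. Every member was named, and of the other lists at most the 3 most raised and 3 most lowered genes past the threshold with no overlap between groups, plus Etfb and Acadl, named outside this rule to complete a count of 5. Gene positions and shared exonic bases come from GENCODE annotation of GRCm38, and promoters from RefSeq on GRCm38.p6. Some markers and genes are not reported here.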

Additional observations from a re-analysis of the deposited data

Results flagged for a closer look

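A library stood apart from the other 3 of its group, by Dixon's criterion for 4 values at the 95% level, in 6 of 107 groups of member values, where chance gives about 1 in 20. In Th17 cells Fdps was at 53.9 FPKM in M42_5, above 35.4 to 37.4 FPKM in the other libraries, and Srebf2 was at 46.5 FPKM in the same library, below 76.8 to 81.9 FPKM. Insig1 was at 27.6 FPKM in the Th17 library M43_5, below 31.5 to 31.9 FPKM. In Th0 cells of the Th17 table, Lss was at 8.95 FPKM in M29_1, below 12.1 to 12.2 FPKM, Elovl5 was at 17.0 FPKM in M42_1, below 38.0 to 39.3 FPKM, and Abcg1 was at 0.948 FPKM in M42_1, below 2.29 to 2.45 FPKM. Of the 6 values, 4 come from libraries whose headings begin with M42.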

How the results depend on the processing

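Counting error per gene is unknown, since the tables hold no counts, and 4 libraries per group limit the precision of every value. The pairing of libraries by heading beginning rests on the data and not on the labels. With the beginning as a replicate block, chosen after seeing the data, 3882 genes passed in Th17 cells (1970 up-regulated and 1912 down-regulated) and 4170 in iTreg cells (2131 and 2039), and 12 members (6 raised and 6 lowered) and 15 members (11 and 4) passed. The block changed no call of a member other than those given with the genes. The causes of the changes listed here were not tested.

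Of the 2 comparisons, the fall of Stard4 in Th17 cells and the rise of Insig1 in iTreg cells were called under every alternative run, and that of Fdft1 under every alternative except an FDR of 0.01. At an FDR of 0.01, 995 genes passed in Th17 cells (574 up-regulated and 421 down-regulated, in place of 1091 and 892) and 778 in iTreg cells (449 and 329, in place of 853 and 838), and 1 member was raised in iTreg cells. With no filter on low values, 8 members passed in iTreg cells, where Scd1, Abca1, and Acss2 were added. Acss2 made 1 lowered member in iTreg cells with no filter, with a pseudocount of 0.1, with median scaling, and with upper quartile scaling. Upper quartile scaling gave 1 of 34 members in Th17 cells above Th0 without overlap and 2 of 34 in iTreg cells below Th0 without overlap. Of all tested genes, 13.2% and 11% were separate in these directions in the values without this scaling. No scaling moved the median log2 fold change of all genes by 0.1 or more.

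With a library left out, 1 to 4 members passed in Th17 cells (0 to 1 raised and 1 to 3 lowered), and the count was 4 without M29_1 or without M42_5. In iTreg cells 2 to 6 members passed (2 to 5 raised and 0 to 1 lowered), with 2 raised without M22_4 or without M43_4. Scd1 is counted as raised without M29_4 or without M42_1. Of all genes, 1155 to 1569 passed in these iTreg fits, in place of 853 raised and 838 lowered of 10208. Lowered genes in iTreg cells numbered 525 to 761, with 525 without M22_1 and 538 without M22_4.

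Members near 0 changed sign, none of them past the threshold. With median scaling, Nsdhl (-0.011) and Acly (-0.0053) did so in Th17 cells and Srebf1 (-0.0068) in iTreg cells. With upper quartile scaling, Hmgcs1 (-0.024), Nsdhl (-0.0080), Srebf1 (-0.036), and Acly (-0.0091) did so in iTreg cells, and with a pseudocount of 0.1, Tm7sf2 (0.0098). With a library left out, log2 fold changes in Th17 cells ranged for Mvk from -0.17 to 0.0042, Mvd from -0.035 to 0.24, Fdps from -0.18 to 0.055, Msmo1 from -0.13 to 0.305, Nsdhl from -0.092 to 0.13, Hsd17b7 from -0.19 to 0.020, Ebp from -0.10 to 0.22, Dhcr7 from -0.27 to 0.34, Insig2 from -0.11 to 0.012, Scd2 from -0.31 to 0.19, Elovl6 from -0.29 to 0.13, Acly from -0.049 to 0.12, and Acss2 from -0.21 to 0.064. In iTreg cells they ranged for Hmgcs1 from -0.16 to 0.18, Idi1 from -0.18 to 0.24, Tm7sf2 from -0.18 to 0.26, Nsdhl from -0.078 to 0.14, Dhcr7 from -0.51 to 0.064, Srebf1 from -0.25 to 0.26, Srebf2 from -0.28 to 0.048, Acaca from -0.34 to 0.066, Elovl6 from -0.21 to 0.0059, Acly from -0.045 to 0.12, Nr1h2 from -0.16 to 0.053, and Mylip from -0.18 to 0.13.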
